A study of Homo sapiens with 24 samples.

Results

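Aldo-keto reductases were followed as 6 genes, AKR1B1, AKR1B10, AKR1B10P1, AKR1C1, AKR1C2 and AKR1C3, taken by gene symbol from a table of read counts over 37411 genes. All 6 passed the filter on low counts, which left 17409 genes for testing. The 6 were selected on measured changes of these libraries, their log2 changes and levels across the 8 groups, so their levels and log2 changes stand here as a description. No p-value is given for them, and where the calls of the fit over all genes are counted, they stand beside the share of all genes called and nothing is read from them. The cells were PC9, an established human non-small cell lung cancer line, and every result concerns this 1 line. Cells were rinsed and given RPMI-1640 medium either 24 h or 6 h before a common endpoint, and the medium lacked asparagine (-Asn) or contained it (+Asn). To it was added ISRIB at 200 nM, a compound that keeps the exchange factor eIF2B active and so dampens the integrated stress response, or the solvent alone as vehicle (0.004% DMSO). The 8 groups were therefore 24 h -Asn ISRIB, 24 h -Asn DMSO, 24 h +Asn ISRIB, 24 h +Asn DMSO, 6 h -Asn ISRIB, 6 h -Asn DMSO, 6 h +Asn ISRIB and 6 h +Asn DMSO, each with 3 biological replicates. The groups of different times differ in when the medium was changed as well as in how long each condition lasted. What separated the biological replicates is not stated, so the spread given here is the spread between these libraries.

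Aldo-keto reductases are mostly cytosolic enzymes that use NADPH to turn aldehydes and ketones into alcohols. AKR1B1, aldose reductase, makes sorbitol from glucose in the polyol pathway. AKR1B10 reduces retinal and lipid-derived aldehydes, is normally high in intestine and is often high in smoking-related lung cancers. AKR1C1, AKR1C2 and AKR1C3 are hydroxysteroid dehydrogenases that also act on xenobiotic carbonyls, and AKR1C3 makes prostaglandin F. Several of these genes are known targets of NRF2, the transcription factor of the electrophile response that KEAP1 marks for degradation.

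The genes lie in clusters, and some are near-identical, which bears on how reads can be assigned. In GENCODE release 29 on GRCh38, AKR1B1 occupies chr7:134442350-134459284 on the minus strand and AKR1B10 chr7:134527592-134541408 on the plus strand. AKR1C1 (chr10:4963253-4983283, plus), AKR1C2 (chr10:4987400-5018031, minus) and AKR1C3 (chr10:5035354-5107686, plus) are neighbours on chromosome 10. AKR1B10P1, at chr10:67750284-67751225 on the plus strand, is a processed pseudogene, an intronless copy of AKR1B10 of 942 bases. The transcripts used for the comparisons of sequence were 1 per gene. AKR1C1 and AKR1C2 were 98.0% identical over their coding sequence, and 50.8% of the 50-base words of the AKR1C2 transcript also occurred in AKR1C1. AKR1C3 was 91.5% identical to AKR1C1 in coding sequence and shared 7.7% of its 50-base words with it. AKR1B10P1 was 95.2% identical to AKR1B10 over 942 bases and shared 12.3% of its 50-base words with it, while AKR1B10 and AKR1B1 were 77.4% identical in coding sequence and shared 0.0%. The first 90 coding bases of the 3 AKR1C genes, from GENCODE 29 transcripts, show this spacing of likeness, with capitals at the positions where the 3 are not all the same; AKR1C1 and AKR1C2 differ there at 1 base, and AKR1C3 differs from AKR1C1 at 11.
AKR1C1: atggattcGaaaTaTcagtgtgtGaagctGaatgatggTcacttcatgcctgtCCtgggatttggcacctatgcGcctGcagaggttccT
AKR1C2: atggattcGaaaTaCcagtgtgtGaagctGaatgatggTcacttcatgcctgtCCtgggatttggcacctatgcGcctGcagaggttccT
AKR1C3: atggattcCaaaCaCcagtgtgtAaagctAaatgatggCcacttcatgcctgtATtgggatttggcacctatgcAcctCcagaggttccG

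A stretch of 90 bases of AKR1B10 and of its pseudogene shows how a short read can tell them apart, with the 8 differing bases in capitals. The stretch is coding bases 338 to 427 of AKR1B10 and bases 337 to 426 of AKR1B10P1, and it opens the longest ungapped block shared by the pair, which held 17 differences over 386 bases.
AKR1B10: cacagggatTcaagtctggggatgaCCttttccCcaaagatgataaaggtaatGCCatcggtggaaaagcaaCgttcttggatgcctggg
AKR1B10P1: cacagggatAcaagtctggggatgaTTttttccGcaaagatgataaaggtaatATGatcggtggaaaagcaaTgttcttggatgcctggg

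The start regions of AKR1C1 and AKR1C2 are shown because this pair differed in the size of its change while the windows were 98.6% identical over 292 aligned bases. The windows run from 250 bases before to 50 after the RefSeq start (GRCh38.p14) and lie at chr10:4963165-4963464 on the plus strand and chr10:5003808-5004107 on the minus strand. Capitals mark bases that differ or lie outside the alignment.
AKR1C1: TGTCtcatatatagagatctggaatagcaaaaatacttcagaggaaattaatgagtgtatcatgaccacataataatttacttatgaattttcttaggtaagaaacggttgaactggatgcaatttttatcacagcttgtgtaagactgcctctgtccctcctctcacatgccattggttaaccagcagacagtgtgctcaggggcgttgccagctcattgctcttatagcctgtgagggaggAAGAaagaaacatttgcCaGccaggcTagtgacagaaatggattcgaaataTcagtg
AKR1C2: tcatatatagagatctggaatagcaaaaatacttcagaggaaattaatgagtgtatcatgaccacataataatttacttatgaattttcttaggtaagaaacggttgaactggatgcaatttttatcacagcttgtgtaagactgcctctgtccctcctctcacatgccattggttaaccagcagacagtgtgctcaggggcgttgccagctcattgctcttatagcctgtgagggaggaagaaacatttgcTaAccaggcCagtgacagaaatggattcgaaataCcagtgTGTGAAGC

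A search on both strands for the core of the antioxidant response element bound by NRF2 (TGACNNNGC, present in 13.3% of 35116 promoter windows of the same length), for an AP-1 site (TGANTCA, 7.7%) and for a composite site of ATF4 (TGATGCAA, 0.9%) found 0 matches in the windows of AKR1C1, AKR1C2, AKR1C3 and AKR1B1. The first of these motifs can overlap the second. The absence concerns these letters in these windows. AKR1B10 had no window among these promoters, so neither it nor AKR1B10P1 was searched.

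The 24 libraries carried 16737384 to 27495861 counts each. ASNS, which makes asparagine, averaged 26.7 ± 3.3 CPM, read counts scaled to a common library size, in 6 h -Asn ISRIB and 166 ± 14 CPM in 6 h -Asn DMSO (SD, n = 3 each), and fell with ISRIB by 2.64 on the log2 scale (SE 0.10, adjusted p = 3.5e-13, edgeR). The 6 epithelial marker genes summed to between 8286 and 11464 CPM in every library. The 4 lung-lineage genes (NKX2-1, NAPSA, SFTPB, SFTPC) summed to at most 0.704 CPM, so these libraries show epithelial but not lung-lineage transcripts. Immune markers summed to at most 2.42 CPM.

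AKR1B10 stood lowest after 24 h of ISRIB without asparagine. It had 175, 170.1 and 182 CPM in 24 h -Asn ISRIB, against 574, 652 and 625 CPM in 24 h -Asn DMSO. With asparagine it had 722, 714 and 848 CPM in 24 h +Asn ISRIB, against 719, 722 and 729 CPM in 24 h +Asn DMSO. The 3 libraries of 24 h -Asn ISRIB lay below all 21 others, of which the lowest was at 498 CPM. The mean of 24 h -Asn ISRIB was 28.5% of that of 24 h -Asn DMSO and 23.1% of that of 24 h +Asn ISRIB. On the log2 scale AKR1B10 was lower by ISRIB without asparagine (-1.81 ± 0.09, SE) and by asparagine withdrawal with ISRIB (-2.12 ± 0.09) at 24 h. At 6 h it had 498, 594 and 590.5 CPM in -Asn ISRIB, against 624, 665 and 595 CPM in -Asn DMSO, a difference of -0.16 ± 0.09. The groups did not overlap, but the highest -Asn ISRIB library and the lowest -Asn DMSO library were 594 and 595 CPM. These rest on 3258 to 4386 counts per library in 24 h -Asn ISRIB.

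AKR1B10P1, the pseudogene copy, followed AKR1B10 closely. It had 58.6, 53.8 and 55.0 CPM in 24 h -Asn ISRIB, against 189.7, 206 and 226 CPM in 24 h -Asn DMSO. Its log2 change was -1.89 ± 0.10 by ISRIB without asparagine and -2.08 ± 0.10 by withdrawal with ISRIB at 24 h. AKR1B10P1 carried 31.8 ± 1.6 counts per 100 of AKR1B10 in 24 h -Asn ISRIB and 33.6 ± 2.3 in 24 h -Asn DMSO (SD, n = 3 each). Over all 24 libraries this ratio ranged only from 30.1 to 36.1 while AKR1B10 itself ranged from 170.1 to 848 CPM. Reads were aligned with Bowtie2, per the submitters' processing notes, and a read across a splice junction of AKR1B10 can match an intronless copy without a gap; whether counts of AKR1B10P1 are reads of AKR1B10 was not tested. With the counts of the pair summed, the log2 change of ISRIB without asparagine at 24 h was -1.83.

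**Figure D1:**
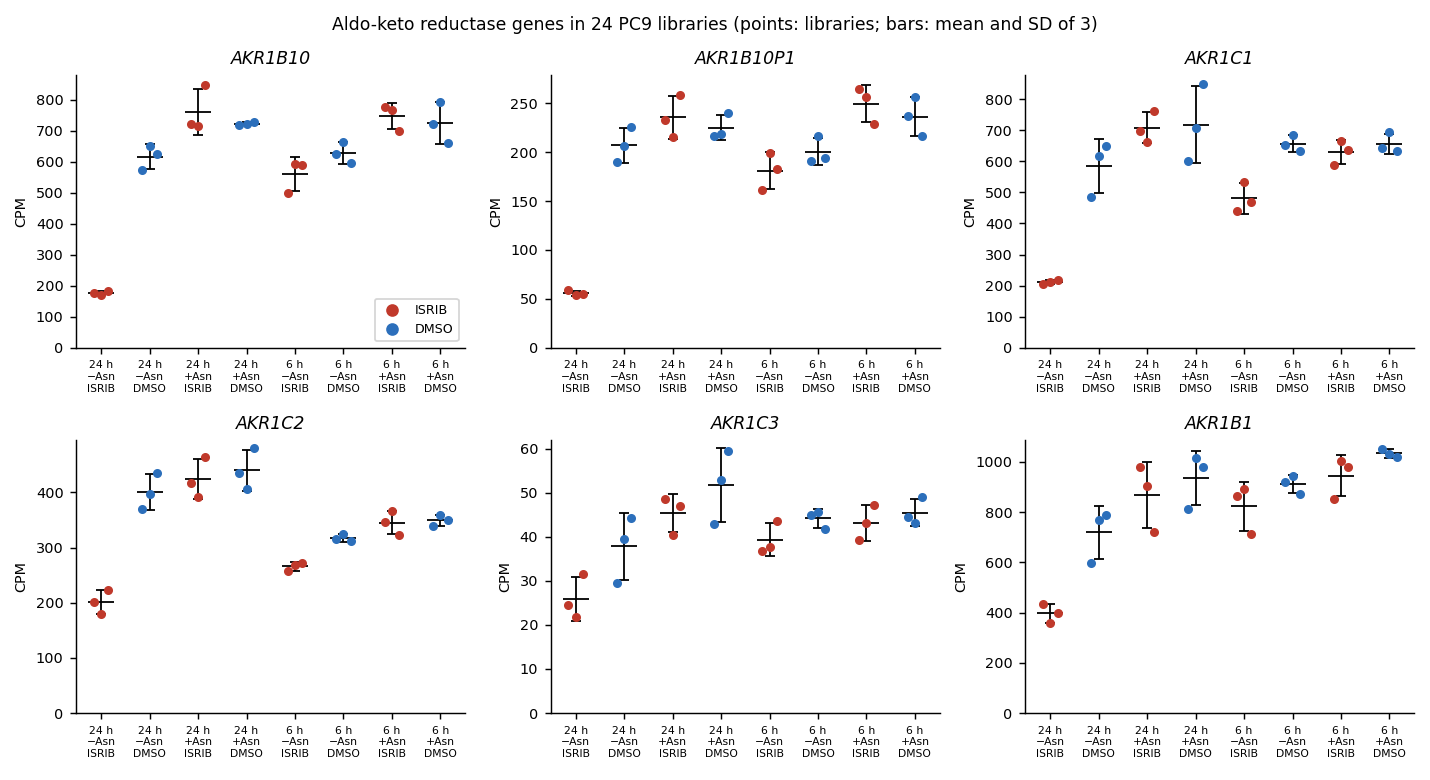
Level of each of the 6 genes in CPM (vertical axes, from 0) in the 8 groups (horizontal axes), with a point per library and the mean ± SD of 3 libraries as bars. The 3 libraries of 24 h -Asn ISRIB lie below the other 21 for every gene except AKR1C3, whose 24 h -Asn ISRIB libraries (21.7 to 31.5 CPM) overlap those of 24 h -Asn DMSO (29.6 to 44.3 CPM). The genes were chosen on these levels, and the share of all genes that separate in this way is not given.

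Among the hydroxysteroid dehydrogenases, AKR1C1, which reduces progesterone to a weaker metabolite, was lower by more than AKR1C2, and AKR1C2 by more than AKR1C3. AKR1C1 had 206, 212 and 217 CPM in 24 h -Asn ISRIB, against 485, 616 and 649.6 CPM in 24 h -Asn DMSO. The groups did not overlap, and replicate 1 was the lowest library in both. Its log2 change was -1.46 ± 0.11 by ISRIB without asparagine and -1.74 ± 0.12 by withdrawal with ISRIB at 24 h. AKR1C2, which inactivates dihydrotestosterone, had 201, 179.8 and 224 CPM in 24 h -Asn ISRIB, against 371, 396 and 436 CPM in 24 h -Asn DMSO. Its log2 changes were -0.99 ± 0.09 and -1.07 ± 0.09. AKR1C3, which makes testosterone from androstenedione, had 24.6, 21.7 and 31.5 CPM in 24 h -Asn ISRIB, against 29.6, 39.5 and 44.3 CPM in 24 h -Asn DMSO. One of the 3 ISRIB libraries lay above the lowest DMSO library. Its log2 changes of -0.55 ± 0.15 and -0.81 ± 0.15 were the smallest of the 6 genes.

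At 6 h without asparagine AKR1C1 was at 438 to 533 CPM in -Asn ISRIB and at 634 to 686 CPM in -Asn DMSO, with no overlap and a log2 change of -0.45 ± 0.11. AKR1C2 was at 257 to 272 CPM in 6 h -Asn ISRIB and 312 to 325 CPM in 6 h -Asn DMSO, also with no overlap (-0.26 ± 0.09). For AKR1C3 the ranges were 36.8 to 43.7 CPM in 6 h -Asn ISRIB and 41.8 to 45.7 CPM in 6 h -Asn DMSO, and they overlapped (-0.17 ± 0.15). For AKR1C1 and for AKR1C2 all 3 libraries of 6 h -Asn ISRIB lay below those of 6 h -Asn DMSO. The genes were chosen on such values, so this is a description. In this comparison edgeR called AKR1C1 but not AKR1C2, where 2.19% of all genes were called.

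The balance between the AKR1C genes differed between groups. AKR1C2 carried 95.2 ± 9.4 counts per 100 of AKR1C1 in 24 h -Asn ISRIB and 69.3 ± 6.4 in 24 h -Asn DMSO (SD, n = 3 each), and these ranges did not overlap. It carried 59.9 ± 0.9 in 24 h +Asn ISRIB and 62.2 ± 8.8 in 24 h +Asn DMSO. AKR1C3 carried 12.2 ± 2.2 counts per 100 of AKR1C1 in 24 h -Asn ISRIB and 6.45 ± 0.36 in 24 h -Asn DMSO. AKR1C2 was also higher at 24 h than at 6 h with asparagine, at 424 ± 36 CPM in 24 h +Asn ISRIB against 345 ± 21 CPM in 6 h +Asn ISRIB, and at 440.5 ± 37.1 CPM in 24 h +Asn DMSO against 349 ± 10 CPM in 6 h +Asn DMSO. The log2 changes were 0.30 ± 0.09 with ISRIB and 0.33 ± 0.09 with vehicle, and AKR1C2 alone of the 6 was called in either, where 17.4% and 18.8% of all genes were. Because AKR1C1 and AKR1C2 share long stretches of sequence and the treatment of reads with several matches is unknown here, the split of counts between them is uncertain. With the counts of the pair summed, the log2 change by ISRIB without asparagine at 24 h was -1.25.

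**Figure D2:**
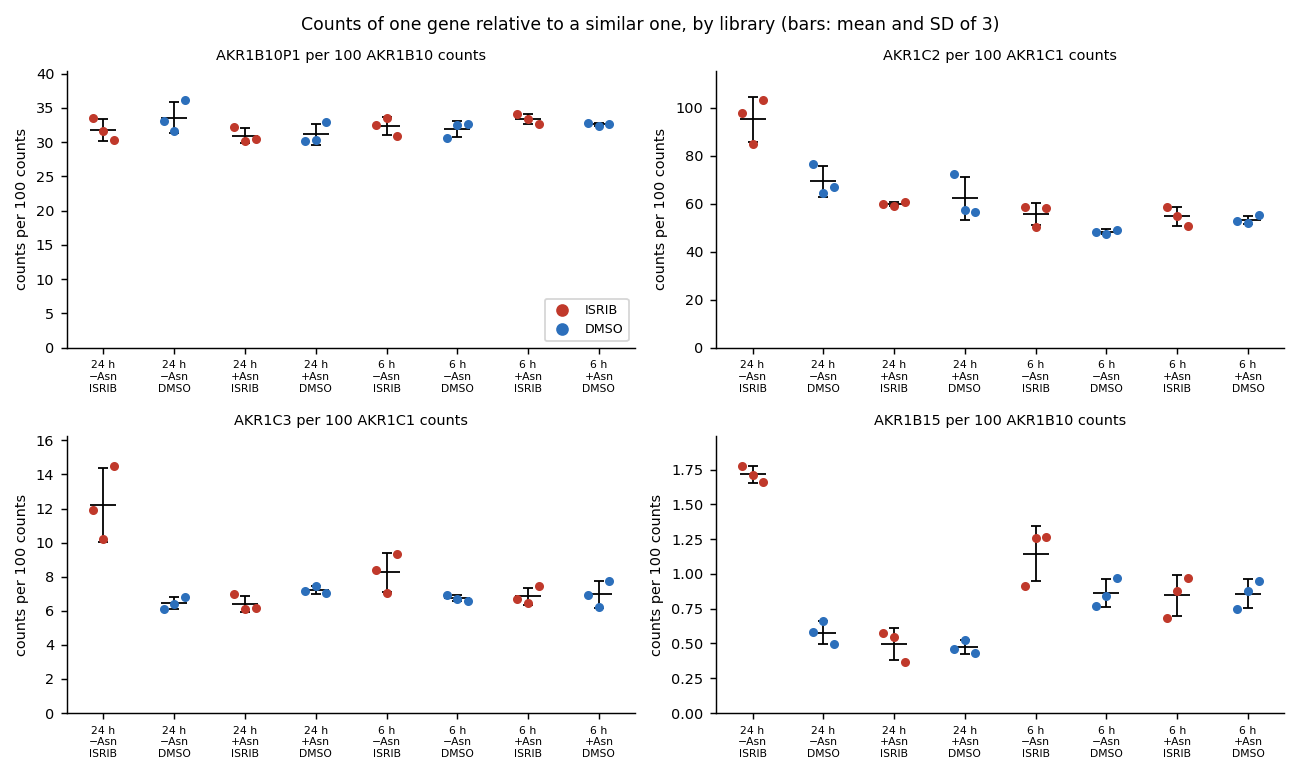
Counts of one gene per 100 counts of a similar gene (vertical axes, from 0) in the 8 groups, with a point per library and the mean ± SD of 3 libraries. The pseudogene stays at 30.1 to 36.1 per 100 AKR1B10 in all 24 libraries, while AKR1C2, AKR1C3 and AKR1B15 stand highest relative to their partners in 24 h -Asn ISRIB.

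AKR1B1, aldose reductase, had 434, 359.6 and 397 CPM in 24 h -Asn ISRIB, against 598, 768 and 789.8 CPM in 24 h -Asn DMSO. With asparagine it had 977, 902 and 720.4 CPM in 24 h +Asn ISRIB, against 811, 1015 and 978 CPM in 24 h +Asn DMSO. Its 24 h -Asn ISRIB libraries lay below all 21 others, but the vehicle group without asparagine was also low, at 76.9% of the mean of 24 h +Asn DMSO. The same percentage was 73.1% for AKR1C3, 81.2% for AKR1C1, 85.3% for AKR1B10, 91.0% for AKR1C2 and 92.0% for AKR1B10P1. The log2 change of AKR1B1 was -0.86 ± 0.12 by ISRIB without asparagine and -1.13 ± 0.12 by withdrawal with ISRIB at 24 h. At 6 h AKR1B1 was at 711 to 893 CPM in -Asn ISRIB and 871 to 942 CPM in -Asn DMSO, which overlapped. AKR1B1 has 6 listed processed pseudogenes, which together carried 28.0 ± 2.0 counts per 100 of AKR1B1 in 24 h -Asn ISRIB and 29.3 ± 1.4 in 24 h -Asn DMSO.

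Levels between genes can be set side by side only per length. In 6 h +Asn DMSO, CPM per kilobase of the transcript chosen was 734 for AKR1B1, 456 for AKR1B10, 251 for AKR1B10P1, 97.8 for AKR1C1, 93.0 for AKR1C2 and 25.2 for AKR1C3. Per kilobase of all annotated exons, AKR1B10 (416) stood above AKR1B1 (282), so the order of that pair depends on the length used, while AKR1C3 was lowest under both. The transcripts chosen had 6705 bases for AKR1C1 and 3756 for AKR1C2, with 972 coding bases in each. Those of AKR1B10 and AKR1B10P1 had 1590 and 942 bases. The low places of AKR1C1 and AKR1C2 therefore also depend on the length used. The 6 genes together made up 0.114% of all counts in 24 h -Asn ISRIB and 0.264% in 24 h -Asn DMSO, on average over 3 libraries. Their summed level ranged from 997 to 1106 CPM in 24 h -Asn ISRIB and from 2247 to 2770 CPM in 24 h -Asn DMSO.

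Ranked by mean, 24 h -Asn ISRIB was the lowest of the 8 groups for all 6 genes. The next lowest group was 6 h -Asn ISRIB for AKR1B10, AKR1B10P1, AKR1C1 and AKR1C2, and 24 h -Asn DMSO for AKR1B1 and AKR1C3. For 5 genes the lowest group did not overlap the next, and for AKR1C3 it did. The 6 genes were chosen on these levels, and the share of all genes that separate in this way is not given here, so nothing is read from this count. Higher in the order most neighbours overlapped: the 4 groups with asparagine overlapped in sequence for AKR1B10, from 761 ± 75 CPM in 24 h +Asn ISRIB down to 723 ± 6 CPM in 24 h +Asn DMSO.

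By comparison, edgeR's quasi-likelihood test with Benjamini-Hochberg adjustment called all 6 genes lower at 24 h by ISRIB without asparagine, where 21.7% of the 17409 genes were called and 11.6% were called lower. It called all 6 lower by withdrawal with ISRIB, where 22.1% were called, 12.2% lower and 9.97% higher. Since the genes were chosen with these contrasts known, these counts carry no weight, and the same holds for the counts at 6 h and between times. The median log2 change of the 6 was -1.23 by ISRIB without asparagine and -1.43 by withdrawal with ISRIB, beside medians over all genes of 0.000865 and 0.00767. Counted from the most negative log2 change among 17409 genes, AKR1B10P1 was at rank 23, AKR1B10 at rank 34, AKR1C1 at rank 79, AKR1C2 at rank 344, AKR1B1 at rank 551 and AKR1C3 at rank 1668 for ISRIB without asparagine. Both comparisons use the same 3 libraries of 24 h -Asn ISRIB, so they are not separate evidence.

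Without ISRIB the differences by withdrawal at 24 h were smaller. The log2 changes in 24 h -Asn DMSO against 24 h +Asn DMSO ran from -0.45 ± 0.15 for AKR1C3 to -0.12 ± 0.10 for AKR1B10P1, all below 0. edgeR called 0 of the 6, DESeq2 0 and limma 0, where edgeR called 0.00574% of all genes, that is 1 gene, against 1271 at an unadjusted p below 0.05, and DESeq2 called 9. At 6 h the log2 changes by withdrawal with vehicle ran from -0.24 to 0.00, and 0 of the 6 were called by edgeR, DESeq2 or limma, where 4.57% of all genes were called. None of these fits used the replicate number, though same-numbered libraries deviated together in both comparisons. With asparagine, ISRIB against vehicle gave log2 changes of -0.19 to 0.07 at 24 h and -0.13 to 0.08 at 6 h. There edgeR, DESeq2 and limma each called 0 of the 17409 genes (0%) at both times, with 248 genes at an unadjusted p below 0.05 at 24 h and 203 at 6 h in edgeR.

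At 6 h, withdrawal with ISRIB gave log2 changes of -0.41 ± 0.09 for AKR1B10, -0.46 ± 0.10 for AKR1B10P1 and -0.38 ± 0.09 for AKR1C2, the 3 that were called where 2.3% of all genes were. As above, the calls of genes chosen on their own changes are given as a description. AKR1C1 changed by -0.39 ± 0.11, AKR1B1 by -0.20 ± 0.12 and AKR1C3 by -0.13 ± 0.15. ISRIB without asparagine at 6 h gave a call for AKR1C1 alone (-0.45 ± 0.11), where 2.19% of all genes were called, and limma on the deposited log2 values gave none. Between 24 h and 6 h of ISRIB without asparagine AKR1B10 differed by -1.67 ± 0.09, AKR1B10P1 by -1.70 ± 0.10, AKR1C1 by -1.18 ± 0.11, AKR1B1 by -1.05 ± 0.12, AKR1C3 by -0.60 ± 0.15 and AKR1C2 by -0.40 ± 0.09, and all 6 were called where 32.3% of genes were. In vehicle without asparagine AKR1C2 was instead higher at 24 h than at 6 h, at 401 ± 33 CPM in 24 h -Asn DMSO against 318 ± 7 CPM in 6 h -Asn DMSO (0.34 ± 0.09), and AKR1B1 lower (-0.34 ± 0.12), the 2 of the 6 that were called where 25.4% of genes were.

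**Figure D3:**
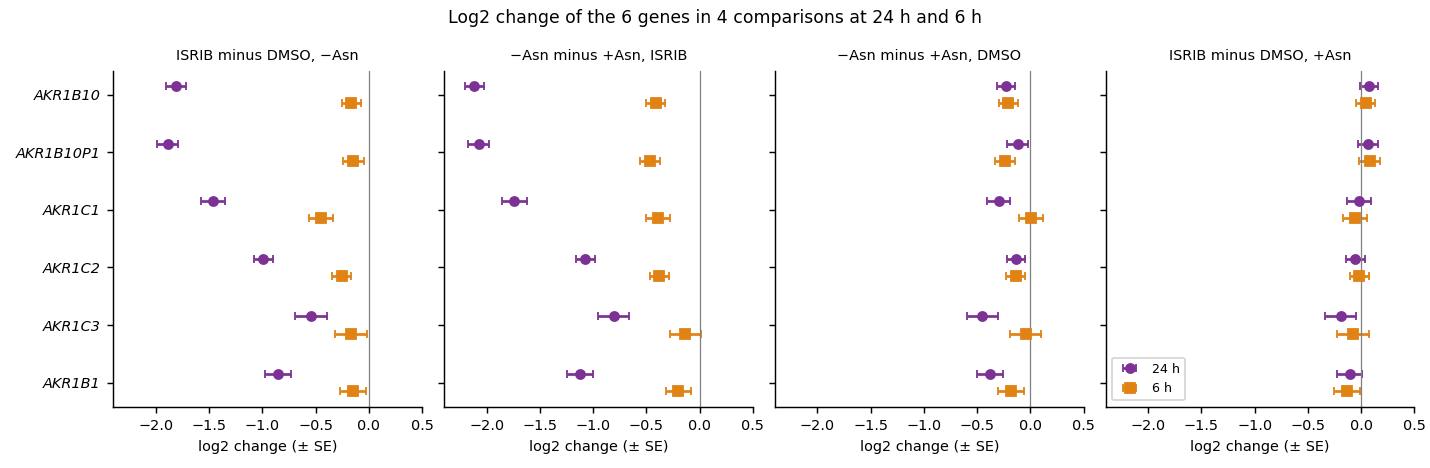
Log2 change ± SE of each of the 6 genes (horizontal axis) in 4 comparisons, at 24 h (circles) and 6 h (squares). ISRIB without asparagine and withdrawal with ISRIB reach -1.81 and -2.12 for AKR1B10 at 24 h, while withdrawal with DMSO and ISRIB with asparagine stay between -0.45 and 0.08.

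The difference between the ISRIB effect without and with asparagine, the interaction of drug and medium, was -1.89 ± 0.12 for AKR1B10, -1.96 ± 0.14 for AKR1B10P1, -1.44 ± 0.16 for AKR1C1, -0.94 ± 0.12 for AKR1C2, -0.75 ± 0.17 for AKR1B1 and -0.36 ± 0.21 for AKR1C3 at 24 h. At 6 h the same quantity ran from -0.39 ± 0.16 for AKR1C1 to -0.02 ± 0.17 for AKR1B1. The ISRIB effect without asparagine differed between 24 h and 6 h by -1.65 ± 0.12 for AKR1B10, -1.01 ± 0.16 for AKR1C1, -0.73 ± 0.12 for AKR1C2 and -0.38 ± 0.21 for AKR1C3. For both quantities 5 of the 6 were called, all but AKR1C3, where 9.06% of all genes were called for the interaction at 24 h (5.59% lower, 3.47% higher) and 7.59% for the difference between times. The genes were selected on their changes in these libraries, so these counts are a description only. For the interaction at 6 h edgeR, DESeq2 and limma called 0 of the 6, 0 and 0, where edgeR called 0.718% of all genes, and for the difference between times of withdrawal with vehicle edgeR called 0, where it called 1.22%.

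Beside the pseudogenes of AKR1B1, a list of 15 other genes and pseudogenes of the superfamily was looked up, none of them among the 6, and 11 passed the filter. Of these, edgeR called 1 lower and 0 higher by ISRIB without asparagine at 24 h, beside 11.6% and 10.1% over all genes; DESeq2 called 2 and limma 1. The 6 AKR1B1 pseudogenes are outside this list, and the 4 of them that were tested all fell. AKR1B1P2 averaged 58.0 ± 3.3 CPM in 24 h -Asn ISRIB and 115 ± 14 CPM in 24 h -Asn DMSO (SD, n = 3 each), without overlap (log2 change -0.99 ± 0.09, adjusted p = 4.1e-07, edgeR). The log2 changes were -1.09 ± 0.13 for AKR1B1P4, -0.93 ± 0.11 for AKR1B1P1 and -0.74 ± 0.23 for AKR1B1P7 (adjusted p = 9.2e-06, 6.2e-06 and 0.027, edgeR). Whether their counts are reads of AKR1B1 was not tested. AKR1C7P, an AKR1C pseudogene, fell, at 2.28, 2.07 and 1.23 CPM in 24 h -Asn ISRIB against 3.58, 2.95 and 3.14 CPM in 24 h -Asn DMSO (log2 change -0.77 ± 0.19, adjusted p = 7.0e-03, edgeR). It rested on 22 to 57 counts per library in 24 h -Asn ISRIB. Its interaction at 24 h (-0.89 ± 0.26, adjusted p = 0.038, edgeR) kept its call in only 5 of 12 fits with 1 library left out, with an adjusted p of up to 0.0996 (edgeR), and lost it with no filter on low counts and with its groups fitted alone. AKR1A1, aldehyde reductase, averaged 54.4 ± 2.9 CPM in 24 h -Asn ISRIB and 44.6 ± 1.1 CPM in 24 h -Asn DMSO (log2 change 0.29 ± 0.10, adjusted p = 0.053, edgeR), and AKR7A2, an aflatoxin aldehyde reductase, changed by 0.13 ± 0.18 (adjusted p = 0.63, edgeR). KCNAB2, a potassium channel subunit of the superfamily, changed by -0.10 ± 0.18 (adjusted p = 0.73, edgeR).

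AKR1B15, the neighbour of AKR1B10 with 95.0% coding identity to it, was not called for ISRIB without asparagine or for withdrawal with ISRIB at 24 h. AKR1B15 averaged 3.01 ± 0.10 CPM in 24 h -Asn ISRIB and 3.57 ± 0.63 CPM in 24 h -Asn DMSO (SD, n = 3 each), a log2 change of -0.25 ± 0.19 (adjusted p = 0.37, edgeR). It carried 1.72 ± 0.06 counts per 100 of AKR1B10 in 24 h -Asn ISRIB and 0.578 ± 0.082 in 24 h -Asn DMSO. AKR1B15 fell at 24 h against 6 h instead, by a log2 change of -1.10 ± 0.18 in -Asn ISRIB (adjusted p = 1.1e-04), by -0.59 ± 0.18 in -Asn DMSO (0.020), by -0.75 ± 0.18 in +Asn ISRIB (5.3e-03) and by -0.85 ± 0.18 in +Asn DMSO (2.1e-03), all adjusted p from edgeR. The call in -Asn DMSO was lost on leaving out any of 4 libraries in turn, and the one in +Asn ISRIB when its groups were fitted alone (adjusted p = 0.062, edgeR).

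Genes known as NRF2 targets were counted because several of the 6 genes are known targets, and none of the 6 is in that list. This list and the other gene lists here were chosen with earlier results of these data known. Their counts and p-values are therefore not independent of these data. Of 36 NRF2 targets 20 fell and 0 rose by ISRIB without asparagine at 24 h, with a median log2 change of -0.41, beside 11.6% of all genes called lower and a median of 0.000865 over all genes. DESeq2 called 21 and limma 20, and 0 of the 36 were higher at an unadjusted p below 0.05. These counts depend on which genes the list holds. SQSTM1 and BACH1, counted below among the regulators of NRF2, are not in it. SQSTM1 rose (0.59 ± 0.19) and BACH1 fell (-0.54 ± 0.17) in this comparison. PTGR1, which reduces unsaturated aldehydes, had 295, 309 and 310.2 CPM in 24 h -Asn ISRIB, against 484, 484 and 507 CPM in 24 h -Asn DMSO (log2 change -0.69 ± 0.08, adjusted p = 3.3e-06, edgeR). CYP4F11, a fatty acid hydroxylase, had 59.4, 47.1 and 56.7 CPM in 24 h -Asn ISRIB, against 118, 119.6 and 111 CPM in 24 h -Asn DMSO (-1.10 ± 0.11, adjusted p = 5.9e-07, edgeR). GPX2, a glutathione peroxidase, changed by -1.02 ± 0.13 (adjusted p = 1.0e-05) and ABCC2, an exporter of glutathione conjugates, by -0.78 ± 0.09 (adjusted p = 3.3e-06, both edgeR). TKT, a pentose phosphate enzyme, changed by -0.02 ± 0.12 (adjusted p = 0.93, edgeR) and NR0B1 by 0.06 ± 0.19 (adjusted p = 0.85, edgeR). The 4 that fell are named because they had the smallest adjusted p of the list in this comparison. That their 24 h -Asn groups did not overlap is therefore a description, and the share of all genes that separate in this way is not given.

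By withdrawal with ISRIB at 24 h 24 of the 36 NRF2 targets fell and 0 rose (median -0.50), and for the interaction at 24 h 16 were lower and 0 higher (median -0.42), beside 12.2% and 5.59% of all genes called lower. With asparagine ISRIB changed 0 of 36 at either time in edgeR, DESeq2 and limma, and 0 at an unadjusted p below 0.05. By withdrawal with vehicle at 24 h edgeR called 0 of 36, with 5 at an unadjusted p below 0.05, all lower, and DESeq2 and limma called 0. At 6 h the counts were small and moved with the method: 2 of 36 fell by ISRIB without asparagine and 6 by withdrawal with ISRIB, but 8 and 11 after correction for GC content, where 2.19% and 2.3% of all genes were called without it. The share of all genes called after that correction is not given, so the larger counts cannot be set against it. SLC7A11, the cystine transporter, which ATF4 also controls, averaged 526 ± 132 CPM in 6 h -Asn ISRIB and 1176 ± 119 CPM in 6 h -Asn DMSO (SD, n = 3 each). It rose by withdrawal with vehicle at 6 h (log2 change 1.00 ± 0.14, adjusted p = 9.4e-05, edgeR) and fell by ISRIB without asparagine at 6 h (-1.16 ± 0.15, adjusted p = 2.1e-05, edgeR), while the 6 aldo-keto reductases changed by between -0.24 and 0.00 by withdrawal with vehicle at 6 h.

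Of 11 regulators of NRF2, BACH1, a repressor at NRF2 sites, fell (-0.54 ± 0.17, adjusted p = 0.025, edgeR) and SQSTM1, an autophagy receptor that binds KEAP1, rose (0.59 ± 0.19, adjusted p = 0.031, edgeR) by ISRIB without asparagine at 24 h, and the other 9 were not called. That is 1 of 11 in each direction, where 11.6% of all genes were called lower and 10.1% higher, so the list as a whole was near the share of all genes. NFE2L2, which encodes NRF2, averaged 218 ± 20 CPM in 24 h -Asn ISRIB and 185 ± 21 CPM in 24 h -Asn DMSO, and KEAP1 averaged 116 ± 7 CPM in 24 h -Asn ISRIB and 101 ± 8 CPM in 24 h -Asn DMSO. At 6 h NFE2L2 rose by withdrawal both with ISRIB (0.83 ± 0.16, adjusted p = 5.0e-03) and with vehicle (1.01 ± 0.16, adjusted p = 2.6e-04, both edgeR), at 363 ± 91 CPM in 6 h -Asn ISRIB against 204 ± 19 CPM in 6 h +Asn ISRIB and at 379 ± 19 CPM in 6 h -Asn DMSO against 188 ± 11 CPM in 6 h +Asn DMSO.

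Other enzymes of carbonyl metabolism were counted beside the family, 23 of 26 listed being tested, and 4 of the list (ALDH3A1, CBR1, CBR3 and PTGR1) are also in the NRF2 list. By ISRIB without asparagine at 24 h 8 of the 23 fell and 0 rose (median -0.30), where 11.6% of all genes were called lower and 10.1% higher (median 0.000865), with 1 higher at an unadjusted p below 0.05; DESeq2 called 9 lower and limma 7. ALDH3A2, a fatty aldehyde dehydrogenase, had 193, 193 and 221 CPM in 24 h -Asn ISRIB, against 356, 355 and 429 CPM in 24 h -Asn DMSO (-0.91 ± 0.10, adjusted p = 1.6e-06, edgeR). ALDH1A3, which makes retinoic acid, changed by -0.70 ± 0.09 (adjusted p = 1.3e-05) and SORD, which turns the sorbitol made by AKR1B1 into fructose, by -0.43 ± 0.10 (adjusted p = 3.2e-03, both edgeR). DHRS7 changed by 0.03 ± 0.09 (adjusted p = 0.82, edgeR).

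Of 25 tested enzymes of steroid, prostaglandin and retinoid metabolism, 5 fell and 2 rose in the same comparison (median -0.14), where 11.6% of all genes were called lower and 10.1% higher (median 0.000865). HSD3B1, a steroid dehydrogenase upstream of the AKR1C enzymes, had 10.3, 11.3 and 9.65 CPM in 24 h -Asn ISRIB, against 36.9, 37.2 and 43.7 CPM in 24 h -Asn DMSO (-1.92 ± 0.11, adjusted p = 3.1e-10, edgeR). HSD17B4, a peroxisomal enzyme, fell by 0.38 on the log2 scale (SE 0.10, adjusted p = 9.8e-03, edgeR). RDH14, a retinol dehydrogenase, rose by 0.71 ± 0.13 (adjusted p = 5.4e-04) and SULT2B1, a steroid sulfotransferase, by 0.83 ± 0.18 (adjusted p = 2.9e-03, both edgeR). PTGS2, the inducible cyclooxygenase, changed by -0.03 ± 0.31 (adjusted p = 0.95, edgeR).

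**Figure D4:**
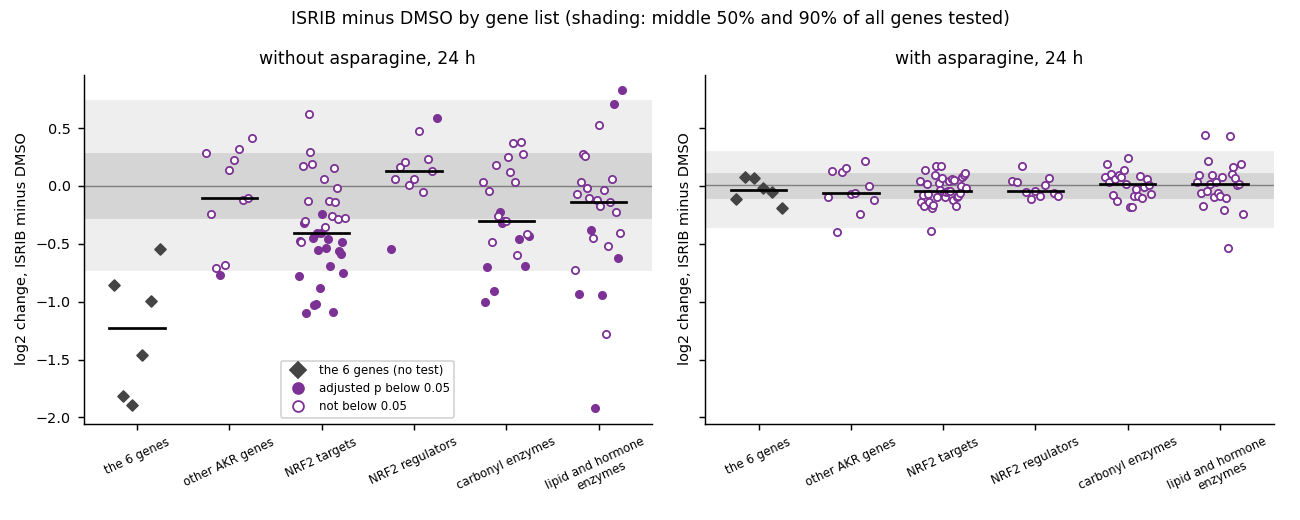
Log2 change, ISRIB minus DMSO, at 24 h without asparagine (left) and with it (right) for the 6 genes (diamonds, no test) and for 5 gene lists (filled circles, adjusted p below 0.05 in edgeR; open circles, not), with the median of each as a line and the middle 50% and 90% of all genes as shading. Without asparagine 20 of 36 NRF2 targets fell and 1 of 11 other aldo-keto reductase genes did, pseudogenes of AKR1B1 not included; with asparagine the medians of the lists lie between -0.06 and 0.02.

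The genes whose log2 CPM over the 24 libraries was most like that of each of the 6 were picked among 11551 genes with a mean of at least 5 CPM. For AKR1B10 the closest was PRDX6, a peroxiredoxin (Pearson r = 0.974 over 24 libraries), then CTNNB1 (0.969), HSPB11 (0.968), FECH (0.967) and RPL4P4 (0.959). PRDX6 averaged 117 ± 4 CPM in 24 h -Asn ISRIB and 240.0 ± 18.7 CPM in 24 h -Asn DMSO. For AKR1B10P1 they were PRDX6 (0.972), CTNNB1 (0.970), FECH (0.969), HSPB11 (0.963) and LRP8 (0.962), and AKR1B10 itself had 0.995 with its pseudogene. For AKR1C1 they were RPL4P4 (0.968), GLUL (0.956), VDAC1 (0.946), PRDX6 (0.943) and CTNNB1 (0.943). For AKR1C2 they were CMBL, a carboxymethylenebutenolidase (0.962), PTGR1 (0.959), PGM1 (0.947), ABCC2 (0.946) and GPD1L (0.945). For AKR1C3 they were PGD (0.913), CTD-2287O16.1 (0.900), COX7B (0.890), GPX2 (0.889) and RP11-288G3.4 (0.881). For AKR1B1 they were RP11-713C19.2 (0.976), RP11-449L13.2 (0.955), PGD (0.954), DNPEP (0.951) and FAH (0.950). The libraries share their groups, and r over 24 libraries mixes differences between groups with those within them. Other measures of likeness often picked other genes: with Spearman's rho, the 8 group means or the values within groups, between 0 and 3 of the 5 were kept for AKR1B1, 0 and 2 for AKR1B10, AKR1B10P1 and AKR1C3, 0 and 1 for AKR1C1, and 0 and 4 for AKR1C2. After removal of group means r was 0.118 between AKR1B10 and PRDX6, 0.847 between AKR1B10 and AKR1B10P1, and 0.730 between AKR1C2 and CMBL.

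Markers of other cell types were low apart from CDH5, a cadherin of endothelium, which ranged from 2.45 to 55.4 CPM over the 24 libraries. The 5 fibroblast markers summed to 9.22 to 13.2 CPM in 24 h -Asn ISRIB and to 4.31 to 6.78 CPM in 24 h -Asn DMSO, nearly all from COL1A1, while COL1A2, COL3A1, DCN and LUM were at or near 0. The 3 endothelial markers summed to 3.96 to 5.08 CPM in 24 h -Asn ISRIB and to 7.26 to 9.64 CPM in 24 h -Asn DMSO, with VWF at most at 0.374 CPM in any library. COL1A1 rose by 0.96 ± 0.22 (adjusted p = 4.3e-03, edgeR) and PECAM1 fell (-1.62 ± 0.32, adjusted p = 1.2e-03, edgeR) by ISRIB without asparagine at 24 h, while edgeR, DESeq2 and limma called 0 of 6 epithelial markers, with 0 at an unadjusted p below 0.05. The part of these in the changes above was not tested. In bulk libraries fewer cells of a kind and less RNA per cell cannot be told apart.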

How the data were processed

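RNA-seq libraries were made from total RNA of PC9 cells, with 24 libraries in 8 groups of 3 biological replicates, per the labels. The authors deposited a table of whole-number read counts per gene and a second table of log2-scale values, which have the form of DESeq2's variance-stabilised counts and run from 3.45 to 18.6. Per the submitters' processing notes Bowtie2, featureCounts, DESeq2 and hg38 were used, and their versions, the handling of strand and of reads with several matches are not given in the sources used here. Reads of near-identical genes could therefore be split between copies or dropped.

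From the counts, genes were filtered with edgeR's filterByExpr (17409 of 37411 kept), scaled by TMM and fitted in 1 model of 8 group means with 16 residual degrees of freedom (edgeR 4.0.16 quasi-likelihood test, R 4.3.3). P-values were adjusted by Benjamini-Hochberg within each of 16 comparisons, with calls at an adjusted p below 0.05. Comparisons within a time share libraries and are not independent. CPM uses TMM-scaled library sizes, and ± beside a CPM or ratio is the SD and beside a log2 change the SE. Genes removed by the filter on low counts held 0.0751% to 0.0980% of the counts of a library and were left out of the tests. Counts of 16737384 to 27495861 per library bound the precision of low genes, and intervals are not given beyond the SE.

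The script was tested on simulated counts. Alternatives were DESeq2 1.42.0, limma 3.58.1 on the deposited log2 values, other scalings and filters, a GC correction, left-out libraries, summed copies and a replicate block. Same-numbered libraries deviated together (r above 0.1 in all 3 pairs, from the data) in 3 comparisons: -Asn against +Asn with DMSO at 6 h (0.304 to 0.339) and at 24 h (0.187 to 0.35), and ISRIB against DMSO in -Asn medium at 6 h (0.327 to 0.47). The main fit did not use the replicate number, so the SE and calls of these 3 comparisons leave this out. Calls of the 6 genes with the replicate block are not given for them. The members and lists were chosen with earlier results of these data known. Genes named are the 6, the other aldo-keto reductase genes, per list at most 4 genes of lowest and 2 of highest adjusted p, and the 5 nearest by Pearson r; KEAP1, PRDX6 as a level, and NFE2L2 at 24 h were added after their values were seen. Of the table's gene IDs 36620 matched GENCODE 29.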

Additional observations from a re-analysis of the deposited data

Results flagged for a closer look

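Each result here is a difference between effects in 2 settings that edgeR's quasi-likelihood test called, and for the 6 genes chosen from these data it is a description. The ISRIB effect at 24 h was lower without asparagine than with it for AKR1B10P1 (log2 difference -1.96), AKR1B10 (-1.89), AKR1C1 (-1.44), AKR1C2 (-0.94) and AKR1B1 (-0.75). The same difference was -1.14 for SLC7A11, -1.02 for CYP4F11, -0.89 for AKR1C7P (a call kept in 5 of 12 fits with 1 library left out), -0.82 for ABCC2 and -0.75 for PTGR1. At 6 h it was -1.27 for SLC7A11.

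The ISRIB effect without asparagine was lower at 24 h than at 6 h for AKR1B10P1 (log2 difference -1.74), AKR1B10 (-1.65), AKR1C1 (-1.01), AKR1C2 (-0.73) and AKR1B1 (-0.71). Among NRF2 targets it was lower by the same measure for GPX2 (-0.86), CYP4F11 (-0.74), ABCC2 (-0.70) and PTGR1 (-0.54). Of the 36 targets 9 were called lower, 0 higher and 27 not, where 7.59% of all genes were called. The effect of withdrawal with vehicle differed between 24 h and 6 h for SLC7A11 (-0.98). Groups of 3 libraries were not searched for outlying samples.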

How the results depend on the processing

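Of 1920 values of the 6 genes under alternatives, 0 changed sign where called, 1879 moved by less than the spread between replicates and 41 by more; the cause was not tested. With GC correction, alone, with the replicate block and leaving out the 3 libraries whose GC slope was most negative (24 h +Asn ISRIB replicate 3, 6 h -Asn ISRIB replicate 3 and 6 h +Asn ISRIB replicate 1; the last chosen after seeing the data), AKR1B1 gave -0.079, -0.079 and -0.10 for withdrawal with DMSO at 6 h, -0.96, -0.96 and -0.98 for the interaction at 24 h and -0.90, -0.89 and -0.90 for the time difference of ISRIB without asparagine. In that order AKR1B10 gave -1.72, -1.72 and -1.72 for ISRIB without asparagine at 24 h and -1.75, -1.74 and -1.73 for the interaction, then -1.53 and -1.52 for the time difference and, under the last setting, -0.30 for withdrawal with DMSO at 24 h. AKR1C1 gave -0.064, -0.062 and -0.086 for withdrawal with DMSO at 6 h, -1.64 and -1.64 for withdrawal with ISRIB at 24 h, -1.26 and -1.26 for the interaction and -0.86 and -0.85 for the time difference. AKR1C2 gave -0.18, -0.18 and -0.21 for withdrawal with DMSO at 6 h. Without those 3 libraries, then with GC correction too, AKR1C1 gave 0.069 and 0.053 for 24 h against 6 h in +Asn ISRIB, and AKR1C3 gave -0.29 and -0.30 for withdrawal with ISRIB at 6 h and, without correction, -0.23 for the interaction at 6 h. With near-identical copies summed, AKR1C1 gave -1.45 for withdrawal with ISRIB at 24 h, -1.25 for ISRIB without asparagine at 24 h, -1.22 for the interaction, -0.87 for the time difference, -0.85 for 24 h against 6 h in -Asn ISRIB and 0.014 in -Asn DMSO.

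The count of NRF2 targets called for withdrawal with DMSO at 6 h (2) was 4 with groups alone, 1 with limma, 4 with GC correction, 4 with the block added, 5 without the 3 libraries and 5 with GC correction without them. For withdrawal with ISRIB at 6 h (6) it was 0 with groups alone and 11, 14 and 12 under the 3 GC corrections. For ISRIB without asparagine at 6 h (2) it was 4 with no filter, 1 with groups alone, 8, 11 and 11 under the 3 GC corrections and 4 without the 3 libraries. For withdrawal with DMSO at 24 h (0) it was 4 with no filter. Leaving out 1 library gave 1 in each case, 3 to 6, and 1 to 3 for the 6 h comparisons in that order, and 18 to 20 for ISRIB without asparagine at 24 h (20) and 22 to 24 for withdrawal with ISRIB (24). The other 12 alternatives gave 20 to 29 and 17 to 32 for these, the 17 with groups alone and the 29 and 32 with GC correction and the 3 libraries left out. The shares of all genes called under these alternatives are not given. With the replicate block alone, AKR1B10 gave -1.81 and 21 NRF2 targets were called for ISRIB without asparagine at 24 h. Same-numbered libraries did not deviate together in that comparison (r of -0.127, -0.267 and 0.0209). Leaving out 1 library gave -1.86 to -1.78 for AKR1B10 and -0.72 to -0.42 for AKR1C3 in that comparison.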
